A study of Mus musculus with 383 samples.

Results

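The lysyl oxidase family comprises 5 genes in the mouse, Lox, Loxl1, Loxl2, Loxl3 and Loxl4, and all 5 were found by symbol among the 49585 genes of the count table. Their transcripts were followed in single tumour cells from skin squamous cell carcinomas, sorted into Epcam-positive and Epcam-negative populations. Epcam is an adhesion protein of epithelial surfaces, and cells that have lost it are studied as products of an epithelial to mesenchymal transition (EMT). Both populations came from tumours of mice carrying Lgr5CreER, KrasLSL-G12D, p53fl/fl and Rosa26-YFP+/+ alleles. The Cre is driven from Lgr5, a gene of hair follicle stem cells, and cells in which it has acted were sorted by YFP. Of the cells sequenced, 62 of 70 Epcam-positive cells (88.6%) and 84.8% of 310 Epcam-negative cells passed filters on depth and quality. The sources used here name no animal, age or tumour for any cell, and no untreated or normal skin cells were analysed here.

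Lysyl oxidases are secreted enzymes that use copper and a quinone cofactor made from their own side chains to oxidise lysines of collagen and elastin. The aldehydes formed react with neighbouring chains and become the covalent crosslinks that stiffen the matrix. Lox and Loxl1 are made as proenzymes with long amino-terminal propeptides, which proteases of the Bmp1 family remove, whereas Loxl2, Loxl3 and Loxl4 carry scavenger receptor domains in front of the same catalytic domain. In tumours the family is known for its part in matrix stiffness and spread, and Loxl2 is also known to bind the EMT factor Snai1.

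The members share their active site, and the coding sequence there is shown to compare them base by base. The stretches below come from the GENCODE vM21 transcripts on GRCm38 and are read 5′ to 3′ along the coding strand. The capitals mark the 8 codons that hold the copper-binding histidines, with 4 codons on each side in lower case. Each stretch crosses 1 exon junction, so the genomic spans include an intron. For Loxl1 (chr9:58293708-58294384, minus strand) the junction joins exons 3 and 4 of 7, and for Loxl2 (chr14:69682313-69689049, plus strand) exons 10 and 11 of 14. For Loxl3 (chr6:83049992-83050137, plus strand) it joins exons 10 and 11 of 14, and for Loxl4 (chr19:42598795-42599902, minus strand) exons 11 and 12 of 15.
Loxl1: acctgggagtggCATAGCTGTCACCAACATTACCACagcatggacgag
Loxl2: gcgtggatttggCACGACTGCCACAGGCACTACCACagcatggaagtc
Loxl3: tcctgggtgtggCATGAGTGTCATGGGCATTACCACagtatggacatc
Loxl4: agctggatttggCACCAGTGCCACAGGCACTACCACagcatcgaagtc
The stretches fell into pairs, with 45 of 48 bases identical between Lox and Loxl1 and 42 of 48 between Loxl2 and Loxl4. Loxl3 shared 34 or 35 bases with each of the others. Over the catalytic part, from 60 codons before the site to the end, Lox and Loxl1 had 74.6% identical residues. Loxl2 and Loxl3 had 69.5%, whereas Loxl1 and Loxl2 had 49.7%. The longest run of coding bases shared exactly by 2 members was 32, between Lox and Loxl1, and no word of 50 bases occurred in the transcripts of 2 members. A read of 50 bases without mismatch therefore matches at most 1 member.

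Other genes did share words with 2 members. Of the 50-base words of Loxl2, 45.01% also occurred in transcripts of other genes, and 42.9% in Gm21451 on the same chromosome, which had 0 reads in both populations. Of those of Loxl3, 8.54% lay in Htra2, a mitochondrial protease gene that runs on the opposite strand and shares 535 exonic bases with Loxl3. The sources used here do not give how shared and overlapping reads were counted, and the levels of Loxl2 and Loxl3 carry an uncertainty that was not measured. Htra2 itself had 28.4 CPM (counts per 1000000 gene reads) among the Epcam-positive and 57.3 CPM among the Epcam-negative cells. Lox, Loxl1 and Loxl4 shared 0 such words with any other gene.

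Kept cells had 104330 to 900492 gene reads, and the population medians were 413142 (Epcam-positive) and 414731 (Epcam-negative). Their reads summed to 24840769 and 107313931. Since no animal is named, each population is a single sample without replicates, and differences between populations were not tested. Plate rows and columns are as assigned to each cell, and run in step with the index sequences in its label. Rows A to C held the Epcam-positive cells and rows D to P the Epcam-negative ones. Population thus cannot be told apart from position on the plate or from index sequence. Intervals are 95% and for counting error only, as reads that carry no molecular identifiers are not independent molecules. In what follows the Epcam-positive value comes first wherever 2 levels are given. Epcam had 1069 and 22.7 CPM, Krt14, a basal keratin, at 13311 and 1836 CPM, and Vim, a mesenchymal filament protein, at 592 and 5809 CPM. Of the Epcam-negative cells, 10 had Epcam transcripts at 5 or more of 100000 thinned reads.

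Of the 5 lysyl oxidases, 4 were higher in Epcam-negative cells. As summed CPM without a pseudocount, each was more than 30-fold higher, the least being Loxl3 at 30.6-fold. The log2 ratios given below include a pseudocount and are smaller. Loxl4 was low in both populations, at 2.17 and 1.74 CPM, with reads in 4 and 18 cells. Lox, Loxl1, Loxl2 and Loxl3 were past a 2-fold difference in summed reads, as were 15.3% of the 9574 genes with at least 10 CPM in either population, which do not include Loxl4. The median log2 ratio, Epcam-negative over Epcam-positive with 1 CPM added to each, was 5.47 over the 5 members and -0.08 over the measured genes. With levels scaled to the spike-in reads instead, the median of the measured genes moved by -0.34, to -0.42, and their 2-fold calls from 1467 higher and 1233 lower to 1098 higher and 2125 lower. The 4 members were still more than 2-fold higher there, as they were with TMM and median-of-ratios scaling.

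Lox, the founding member and a crosslinker of fibrillar collagen and elastin, lies on chromosome 18 from 52516067 to 52529867 of GRCm38 (ENSMUSG00000024529.13). In single Epcam-positive cells it ranged from 0 to 211.7 CPM with a median of 0, and in Epcam-negative cells from 0 to 12044 CPM with a median of 327.7. The ranges overlapped, but 37.1% of Epcam-positive cells had a Lox read against 94.7% of Epcam-negative cells. Summed over cells, Lox was at 5.56 CPM (4.67 to 6.56) and 739 CPM (734 to 744), a log2 ratio of 6.82 (6.61 to 7.03). Of the Epcam-positive Lox reads 44.2% came from 1 cell, and without the cell with most reads in each population the levels were 3.14 and 704 CPM and the log2 ratio 7.41. That cell, in row C and column 2, also held the most Col1a1, Col1a2 and Col3a1 reads of the Epcam-positive cells and had 246.4 CPM of Epcam. Among cells of plate columns 1 to 12 the log2 ratio was 6.17, and among those of columns 13 to 24 it was 8.29.

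Loxl1, which is needed for the upkeep of elastic fibres, lies on chromosome 9 from 58287738 to 58313186 (ENSMUSG00000032334.10). Single Epcam-positive cells had 0 to 34.7 CPM (median 0) and Epcam-negative cells 0 to 2136 CPM (median 159.96). No read was found in 50 of the 62 Epcam-positive cells, and the remaining 12 cells held 36 reads in all. The summed levels were 1.45 CPM (1.02 to 2.01) and 290.96 CPM (287.7 to 294.2), a log2 ratio of 6.90 (6.60 to 7.18). This interval overlapped that of Lox, so that the order of both ratios is within counting error. The ratio was 6.40 in columns 1 to 12 and 7.73 in columns 13 to 24.

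Loxl2, a crosslinker of collagen IV and fibrillar collagens, lies on chromosome 14 from 69609068 to 69695834 (ENSMUSG00000034205.16). Epcam-positive cells had 0 to 51.7 CPM and Epcam-negative cells 0 to 1174 CPM, with medians of 0 and 31.2. It was the least even of the 4 in Epcam-negative cells, where 21 cells held 50% of its reads, against 37 for Lox, 34 for Loxl1 and 38 for Loxl3. The summed levels were 1.29 CPM (0.881 to 1.82, from 32 reads) and 100.1 CPM (98.2 to 102.02), a log2 ratio of 5.47 (5.16 to 5.75). As a mean of each cell's CPM the ratio was 4.95, with the Epcam-positive level at 1.92 CPM.

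Loxl3, known for its part in palate and spine development, lies on chromosome 6 from 83034173 to 83052562 (ENSMUSG00000000693.10). Its range was 0 to 156.2 CPM in Epcam-positive cells and 0 to 2129 CPM in Epcam-negative cells, with medians of 0 and 161.8. It was the member with most reads in Epcam-positive cells. These reads came from 23 cells, but 1 cell held 26.3% of them, and without it Loxl3 was at 7.19 CPM there. The summed levels were 9.50 CPM (8.33 to 10.8) and 290.4 CPM (287.2 to 293.6), a log2 ratio of 4.79 (4.63 to 4.97), the lowest of the 4. The values were 4.52 in columns 1 to 12 and 5.29 in columns 13 to 24.

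Loxl4, whose transcripts are known from cartilage and some epithelia, lies on chromosome 19 from 42593982 to 42612813 (ENSMUSG00000025185.14). It had a read in 4 Epcam-positive and 18 Epcam-negative cells, with highest values of 55.5 and 117.3 CPM and a median of 0 in both. Its summed levels of 2.17 CPM (1.63 to 2.84) and 1.74 CPM (1.50 to 2.01) gave a log2 ratio of -0.21 (-0.52 to 0.09). In Epcam-positive cells 30 of the 54 reads came from 1 cell and 22 from another, and in Epcam-negative cells 28.9% came from 1 cell. Without the cell with most reads in each population the levels were 0.988 and 1.24 CPM and the ratio 0.18, so its direction rests on single cells. The ratio was -0.58 in columns 1 to 12 and 0.87 in columns 13 to 24.

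**Figure D1:**
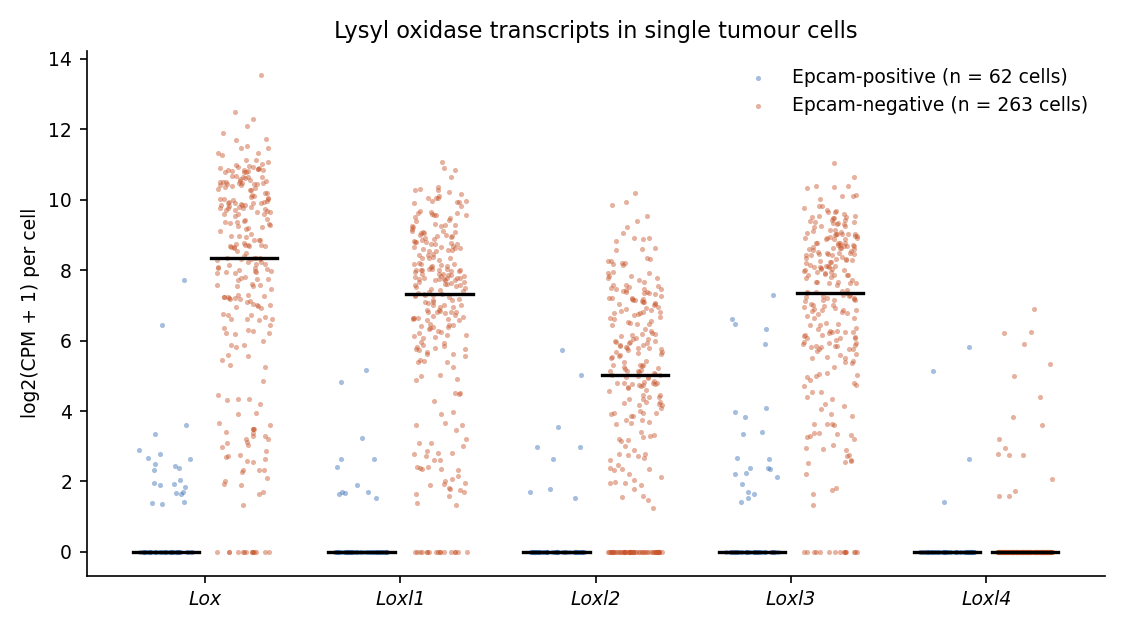
Each point is 1 kept cell, with log2(CPM + 1) on the vertical axis for each family member, Epcam-positive cells (62) on the left and kept Epcam-negative cells on the right of each gene. Black lines are medians, which lie at 0 for all 5 members in Epcam-positive cells and above 0 for Lox, Loxl1, Loxl2 and Loxl3 in Epcam-negative cells.

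Reads were also summed within each plate row, which gives 3 Epcam-positive pools of 19 to 23 cells and 13 Epcam-negative pools of 16 to 23 cells. The pools are parts of 1 plate and not replicates. Lox was at 1.21 to 12.9 CPM in the Epcam-positive pools and at 439.95 to 1145 CPM in the Epcam-negative ones. Loxl1 was at 0.666 to 1.82 and 164.9 to 518 CPM, and Loxl2 at 0.400 to 2.75 and 51.4 to 166.3 CPM. Loxl3 was at 4.61 to 14.8 and 182.3 to 472.9 CPM. All Epcam-negative pools thus lay above all Epcam-positive pools for these 4 members, which was so for 8.46% of the measured genes. For 0 members did all Epcam-negative pools lie below all Epcam-positive ones, as was so for 9.7% of the measured genes. The pools of Loxl4 overlapped, at 0.220 to 3.64 and 0 to 9.60 CPM.

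**Figure D2:**
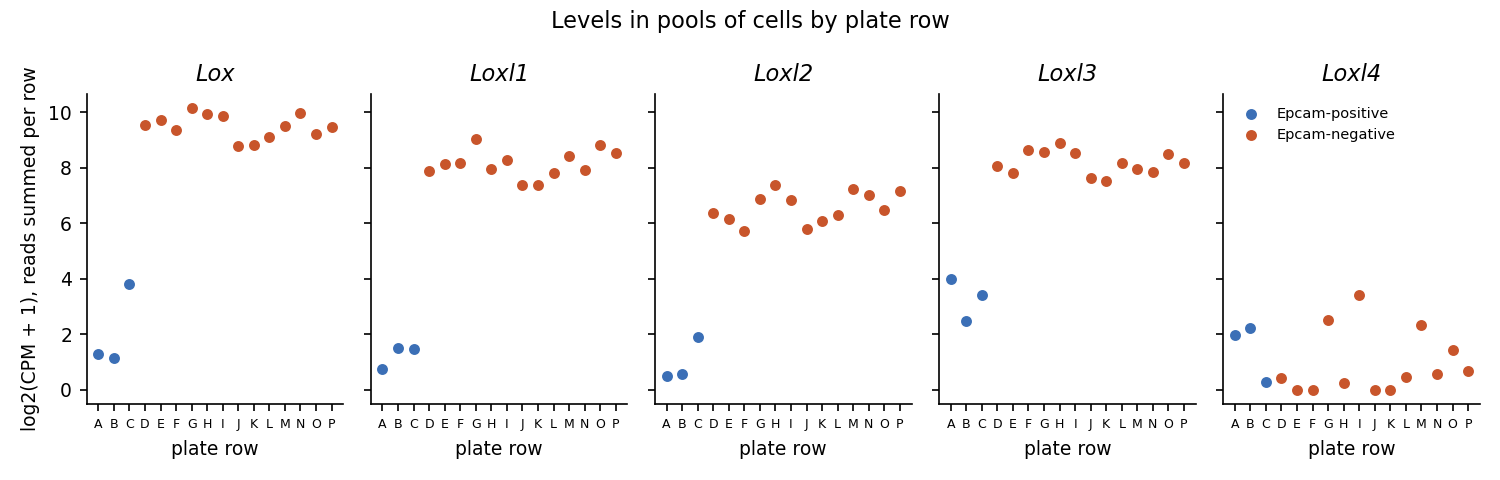
Points are pools of cells by plate row, with log2(CPM + 1) of the summed reads on the vertical axis and 1 panel per gene. The 13 Epcam-negative pools (D to P) lie above the 3 Epcam-positive pools (A to C) for Lox, Loxl1, Loxl2 and Loxl3, and overlap them for Loxl4.

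Levels can be set against each other only per length, and were taken as reads per kilobase of exon per 1000000 gene reads (RPKM). In Epcam-negative cells the order was Lox at 154.7 RPKM, Loxl1 at 88.2, Loxl3 at 63.1, Loxl2 at 18.5 and Loxl4 at 0.414. Over the plate-row pools Lox ranged from 92.1 to 239.7 RPKM and Loxl1 from 50.02 to 157.1, so their ranges overlapped, although Lox was above Loxl1 in 12 of the 13 pools. The ranges of Loxl1 and Loxl3 overlapped too, and Loxl1 was the higher in 11 of 13. Loxl2, at 9.51 to 30.8 RPKM, lay below the range of Loxl3, at 39.6 to 102.7 RPKM, and above that of Loxl4, at 0 to 2.28. By share, Lox made up 47.6% of the family's 324.9 RPKM, Loxl1 27.2%, Loxl3 19.4%, Loxl2 5.70% and Loxl4 0.127%. When length was counted only over the 50-base words that no other gene holds, Loxl2 came to 33.99 per kilobase and 9.77% of the family.

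In Epcam-positive cells the family summed to 4.42 RPKM and the order differed. Loxl3 was first at 2.06 RPKM (46.7% of the family), followed by Lox at 1.16 and Loxl4 at 0.516. Loxl1 was at 0.440 and Loxl2 at 0.238 RPKM. Over the 3 pools Loxl3 ranged from 1.001 to 3.21 RPKM and Lox from 0.254 to 2.69, so that they overlapped. The ranges of Loxl4, from 0.0522 to 0.864, and Loxl1, from 0.202 to 0.552, overlapped as well, and so did those of Loxl1 and Loxl2, the latter at 0.0739 to 0.509. After the cell with most reads of each member was left out, Loxl3 was at 1.56 and Lox at 0.656 RPKM, still the first pair, while Loxl4 at 0.234 was below Loxl1 at 0.298. The third place of Loxl4 thus rests on 1 cell.

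Presence in single cells was counted after each cell was thinned to 100000 gene reads, with 5 reads or more, which corresponds to 50 CPM, as present. In Epcam-negative cells Lox was present in 76.05% (70.4% to 81.1%), and Loxl1 and Loxl3 each in 72.6% (66.8% to 77.9%). Loxl2 was present in 40.7% (34.7% to 46.9%) and Loxl4 in 1.52%, or 4 cells. In Epcam-positive cells Lox was present in 2 of 62 cells, Loxl3 in 5 and Loxl4 in 2. Loxl1 and Loxl2 were present in 0 of 62, for which the exact upper limit is 5.78% and 3 cells would be 4.84%. Without thinning, 37.1% of Epcam-positive cells had at least 1 read of Lox, and as many had one of Loxl3, so a single read was not taken as expression.

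Most Epcam-negative cells carried several members at once. Of these cells 8.75% (5.62% to 12.8%) had none present, 10.6% had 1, 17.9% had 2, 34.6% (28.9% to 40.7%) had 3, 27.4% had 4 and 2 cells had all 5. Of the Epcam-positive cells, 56 of 62 (90.3%, 80.1% to 96.4%) had none, 3 had 1 and 3 had 2. Lox, Loxl1 and Loxl3 coincided in 52.5% of Epcam-negative cells (46.2% to 58.6%), and Lox and Loxl1 in 64.3%, where the product of their single shares is 55.2%. Lox and Loxl3 were present together in 61.2% (product 55.2%), and Loxl1 and Loxl2 in 35.4% (product 29.5%). Loxl2 without Lox was found in 13 cells.

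**Figure D3:**
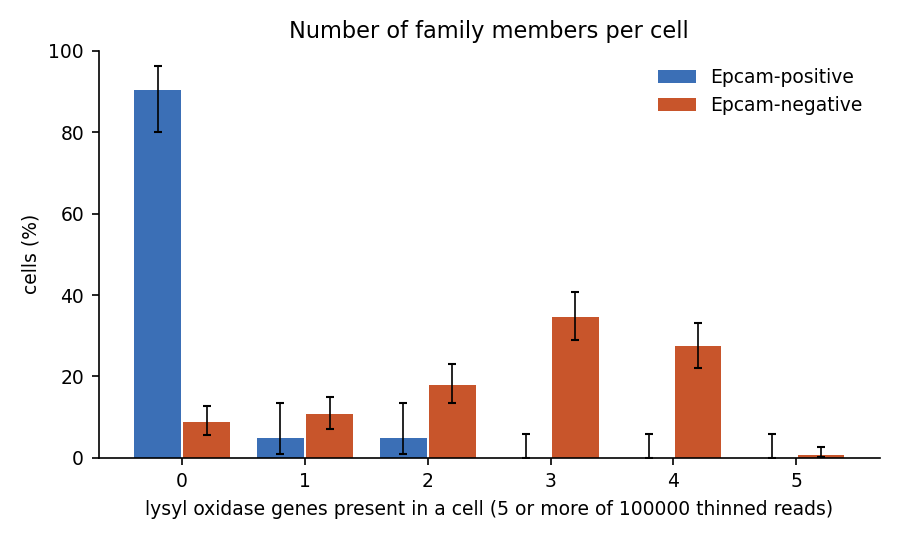
Bars give the percentage of kept cells, separately for both populations, by the number of lysyl oxidase genes present, and lines are exact 95% binomial intervals. The Epcam-positive bar at 0 members stands at 90.3%, and the highest Epcam-negative bar, at 3 members, at 34.6%.

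The leading member differed from cell to cell. Among the Epcam-negative cells with at least 20 reads of the family, Lox had the highest level per length in 47.9%, Loxl1 in 26.4% (64 cells), Loxl3 in 23.6% (57 cells), Loxl2 in 5 cells and Loxl4 in 0. Only 6 Epcam-positive cells had as many family reads, and Lox and Loxl3 each led in 2 of them. Full counts per cell, not thinned, were used here.

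Over the kept Epcam-negative cells the members were correlated unequally. Spearman's rank correlation on thinned counts was 0.52 between Lox and Loxl1, 0.41 between Lox and Loxl2 and 0.37 between Loxl1 and Loxl2. For Loxl3 it was 0.29 with Loxl1, 0.20 with Loxl2 and 0.18 with Lox. These values describe cells of 1 plate that share library preparation, and carry no p-value. Without the 10 cells in which Epcam was present, Lox and Loxl1 had a rank correlation of 0.49 and Lox and Loxl3 0.13. Weak correlations of sparse counts, including all those of Loxl4 (-0.01 to 0.07 with the other members), are not read as relations.

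The genes whose counts followed each member most closely were sought among 5207 genes present in at least 20% of Epcam-negative cells. For Lox they were Col1a2, a chain of type I collagen (rank correlation 0.64), the secreted glycoprotein gene Fstl1 (0.56), Col1a1 (0.56), the collagen-binding protein gene Aebp1 (0.55) and Ctla2a (0.54). For Loxl1 they were Col1a2 (0.63), Col1a1 (0.55), Fstl1 (0.55), Rcn3, a calcium-binding protein of the endoplasmic reticulum (0.54), and the matrix protein gene Sparc (0.53). For Loxl2 they were the metalloprotease gene Mmp23 (0.45), Col1a2 (0.45), the fibulin gene Fbln2 (0.43), Lox (0.41) and the perlecan gene Hspg2 (0.41). For Loxl3 they were the fibronectin gene Fn1 (0.39), Calu (0.39), Col1a2 (0.37), Txndc5 (0.37) and Pdlim2 (0.37). Col1a2 was thus among the 5 for each of the 4 members. Over all ranked genes the 95th percentile of the rank correlation was 0.20 for Lox, 0.21 for Loxl1, 0.18 for Loxl2 and 0.21 for Loxl3.

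The basal keratin genes Krt14 and Krt5 had negative values within the Epcam-negative population. The rank correlation with Krt14 was -0.47 for Lox, -0.42 for Loxl1, -0.34 for Loxl2 and -0.28 for Loxl3, and with Krt5, its partner in basal cells, -0.46, -0.39, -0.33 and -0.26. Epcam, present in 3.80% of these cells, had -0.06 with Lox, -0.19 with Loxl1, -0.09 with Loxl2 and -0.16 with Loxl3, and 0.07, -0.07, 0.00 and 0.01 without the cells in which it was present. Vim, present in 98.1% of these cells, had -0.04 with Lox and 0.09 with Loxl1, and Zeb1 0.09 and 0.08. Snai1 had 0.13 with Loxl2 and 0.23 with Lox. The share of mitochondrial reads moved with some members as well, with a rank correlation of -0.46 for Lox, -0.44 for Loxl1, -0.26 for Loxl2 and -0.04 for Loxl3, and its part in these correlations was not tested. The rank correlation with the number of gene reads was between 0.05 (Lox) and 0.19 (Loxl2) for the 4 members.

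**Figure D4:**
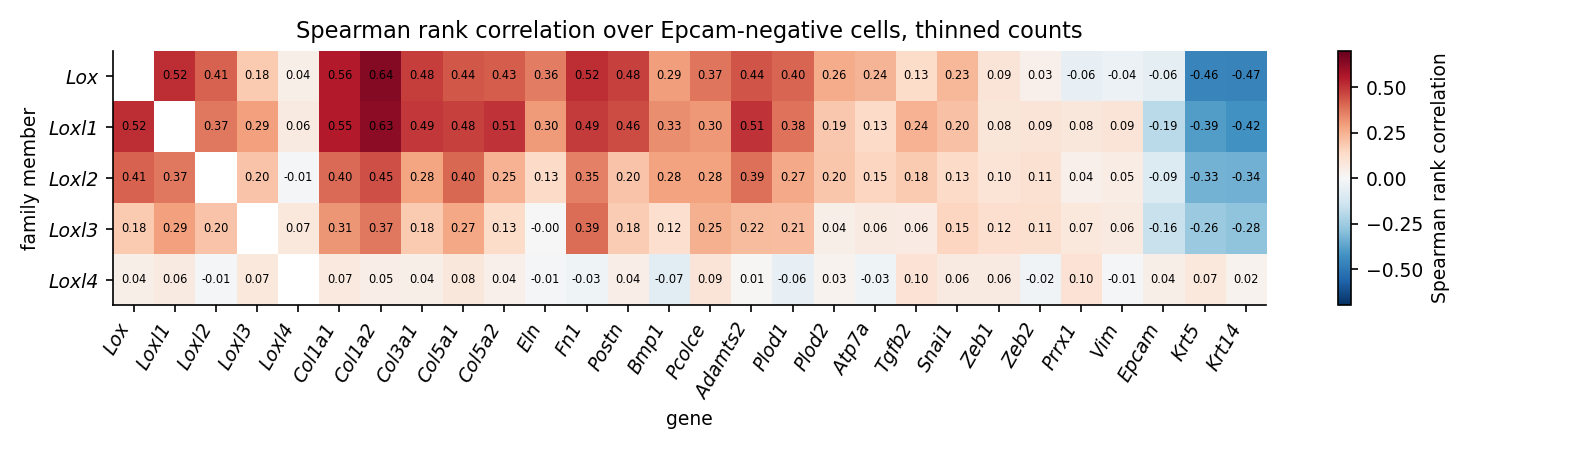
Colour and printed values give Spearman's rank correlation over the kept Epcam-negative cells on counts thinned to 100000 gene reads, with family members as rows and genes as columns. Lox and Loxl1 have the highest values with Col1a2 (0.64 and 0.63) and negative values with Krt14 (-0.47 and -0.42), and the Loxl4 row is close to 0 throughout.

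The measured substrate genes of the family differed between the populations in the same direction. The Epcam-negative level was more than 2-fold higher for all 7 measured fibrillar collagen genes, and their median log2 ratio was 6.23. Over all measured genes 15.3% were past 2-fold upwards, a share that also stands beside the other counts of this paragraph. Col1a1, a chain of type I collagen, had 15.98 and 2593 CPM, and Col3a1, the type III collagen gene, 31.2 and 4756 CPM. With the richest Epcam-positive cell of each left out, Col1a1 was at 7.33 CPM and Col3a1 at 13.07 CPM there. Col1a2, the type I collagen gene listed above for each of the 4 members, had 45.5 and 4692 CPM, with 60.8% of its Epcam-positive reads in 1 cell. Without that cell the Epcam-positive level of Col1a2 was 18.04 CPM. Col5a2, a chain of type V collagen, had 16.4 and 1307 CPM, and Col11a1, a chain of type XI collagen, 1.77 and 175.3 CPM. Leaving out the Epcam-positive cell richest in the gene concerned, their Epcam-positive levels were 4.40 and 1.02 CPM. Of 8 elastin and microfibril genes, 7 were 2-fold or more higher, with a median of 3.83. Eln, the elastin gene, was at 4.63 and 387.8 CPM (2.65 in Epcam-positive cells after its richest cell was left out). Mfap5, a microfibril protein gene, was at 2.58 and 353.5 CPM (1.02 after the same step). Basement membrane collagen IV differed less, with 3 of 4 measured genes of that list 2-fold or more higher and a median of 1.73. Col4a5 was at 6.52 and 34.1 CPM (3.30 in Epcam-positive cells after its richest cell was left out). Col4a1 was at 54.2 and 175.1 CPM and Col4a2 at 108.8 and 379.3 CPM, while Pxdn, a peroxidase that crosslinks collagen IV by another chemistry, was at 134.01 and 184.5 CPM.

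Genes that process or present the enzymes and their substrates were likewise higher in Epcam-negative cells. At least 2-fold higher were 7 of 8 measured, against 15.3% of all measured genes, and the median ratio was 3.71. Bmp1, the protease that releases the Lox propeptide, had 139.1 and 343.1 CPM (log2 ratio 1.30). With spike-in scaling 6 of the 8 were past 2-fold, against 1098 of the 9574 measured genes, and Bmp1 was not among the 6. Tll1, a protease of the Bmp1 family, was at 8.17 and 13.2 CPM (4.24 in Epcam-positive cells after its richest cell was left out). Adamts2, a procollagen protease gene, was at 1.73 and 307.1 CPM (0.896 after the same step). Postn, the periostin gene, was at 85.02 and 3779 CPM, and Fn1, a fibronectin scaffold for the enzymes, at 101.6 and 3829 CPM. After the same step Postn was at 55.2 CPM in Epcam-positive cells.

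Lysyl hydroxylases modify collagen lysines in the cell before the oxidases act on them. Of the 7 genes in that list, 5 were past 2-fold upwards in Epcam-negative cells (4 with spike-in scaling), and the median ratio was 2.04. Over all measured genes the share was 15.3% (1098 of 9574 with spike-in scaling). Plod1 was at 40.9 and 193.7 CPM, Plod2 at 19.04 and 90.01 CPM, and Fkbp10, a chaperone of the hydroxylases, at 58.6 and 273.6 CPM. Plod3 was at 51.8 and 68.3 CPM. P3h4, a partner of Plod1, was at 135.8 and 129.9 CPM, a difference whose sign depended on the scaling (log2 ratio -0.06, and 0.07 with TMM).

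Genes that supply copper did not share the direction of the oxidases. Of 7 measured, 1 lay past 2-fold upwards in Epcam-negative cells and 3 past 2-fold downwards, against 15.3% and 12.9% of all measured genes, and the median was -0.19. The 1 higher gene was Atp7a, the pump that loads copper into secreted enzymes, with 13.8 and 29.5 CPM and a log2 ratio of 1.05 (0.89 to 1.20). A single cell held 43.9% of its Epcam-positive reads, and without it Atp7a was at 7.90 CPM there. With spike-in scaling 0 of the 7 were past 2-fold upwards, against 1098 of the 9574 measured genes. The lower genes were Atox1, the chaperone that hands copper to that pump, at 343.1 and 150.2 CPM, Slc31a2, a copper transporter gene, at 98.1 and 45.3 CPM, and Cox17, the chaperone of mitochondrial copper, at 42.7 and 18.8 CPM. With TMM or median-of-ratios scaling 2 of them were past 2-fold, as were 1010 and 1041 of the 9574 measured genes downwards. Slc31a1, the main importer, was at 92.9 and 81.4 CPM.

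The median ratio of fibril modulators and other crosslinking genes was 4.85. Of 5 measured, 4 were past 2-fold upwards in Epcam-negative cells, against 15.3% of all measured genes. These were the small proteoglycan genes Lum, at 0.201 CPM from 5 reads and 89.4 CPM, Dcn, at 81.3 and 3620 CPM, Bgn, at 105.6 and 3067 CPM, and Fmod, at 13 and 119.4 CPM. After its richest cell was left out, Fmod was at 3.94 CPM in Epcam-positive cells. Tgm2, a transglutaminase that crosslinks matrix by other bonds, was at 28.9 and 22.4 CPM. After the same step Tgm2 was at 20.1 CPM there.

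Regulators known for the family were read by list. Of 9 measured TGF-beta genes, 7 were past 2-fold upwards in Epcam-negative cells, and the median ratio was 2.17. They include Ccn2, at 36.4 and 421 CPM, and Tgfb2, at 15.5 and 109.7 CPM. Not all genes of the list differed so. Tgfb1, below 10 CPM in both populations, was at 3.22 and 2.97 CPM, and the receptor gene Tgfbr1 at 71.2 and 75.8 CPM. Hypoxia-inducible genes had a median of -0.36, with 1 of 13 past 2-fold upwards and 2 downwards (4 downwards with spike-in scaling). Over all measured genes the shares were 15.3% upwards and 12.9% downwards, so these counts are no result about the list, and with spike-in scaling 2125 of the 9574 measured genes were past 2-fold downwards. The higher gene was Adm, the adrenomedullin gene, at 61.5 and 171.9 CPM (29.3 in Epcam-positive cells after the cell with 53.3% of its reads was left out). The lower genes were Slc2a1, a glucose transporter gene, at 971.5 and 315.5 CPM, and Ldha, lactate dehydrogenase, at 3434 and 1578 CPM. Hif1a, the oxygen-regulated factor, was at 305.3 and 369.7 CPM, with a log2 ratio of 0.28 that was -0.08 with spike-in scaling. Of 6 measured EMT factors, 5 were 2-fold or more higher, among them Snai1 (0.725 and 58.5 CPM), Zeb2 (1.37 and 72.04 CPM) and Zeb1 (1.25 and 48.6 CPM). After the richest Epcam-positive cell of each was left out, Zeb2 was at 0.652 CPM and Zeb1 at 0.780 CPM there. Snai2, a factor that basal keratinocytes also express, was 2-fold or more lower, at 98.9 and 16.2 CPM.

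**Figure D5:**
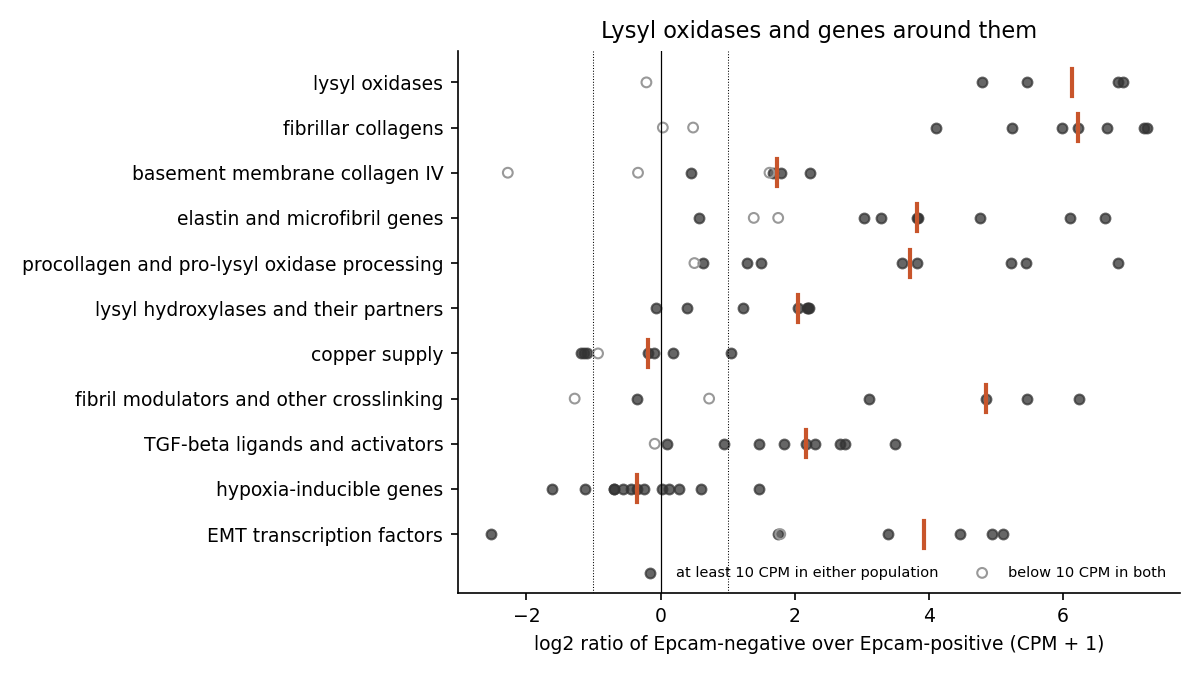
Points are genes, with the log2 ratio of Epcam-negative over Epcam-positive on the horizontal axis and gene lists as rows. Filled points had at least 10 CPM in either population, orange lines are medians of those, and dotted lines mark a 2-fold difference. The medians of the lysyl oxidases (6.14 over the 4 measured) and fibrillar collagens (6.23) lie farthest to the right, and copper supply (-0.19) and hypoxia-inducible genes (-0.36) lie left of 0.

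Markers of other cells the sort could hold were read beside these values. All 5 measured dermal fibroblast markers of 6 were past 2-fold upwards in Epcam-negative cells, against 15.3% of all measured genes. Their summed level went from 97.4 to 4275 CPM, and Pi16 was at 0 and 0.112 CPM. Lum and Dcn of these markers are also among the fibril modulators above. Both measured pericyte markers of 5 were higher, with a summed level of 20.9 and 61.6 CPM, and Rgs5 had 0 reads in Epcam-positive cells and 13.2 CPM in Epcam-negative cells, 46.8% of it in 1 cell. Their part in the levels of the lysyl oxidases was not tested. The cells were gated on YFP, which marks recombined cells. The immune markers summed to 25.4 and 20.7 CPM, but single markers went both ways. Cd3e was at 0.604 and 6.18 CPM and Csf1r at 0 and 2.66 CPM. Cd68, in contrast, was at 15.3 and 7.99 CPM and Lyz2 at 9.54 and 3.74 CPM, and Ptprc was at 0 and 0.0932 CPM. The endothelial markers summed to 18.1 and 5.45 CPM, with Pecam1 at 13.3 and 4.60 CPM and Tek at 0 in both. Melanocyte and erythroid markers summed to 2.25 CPM or less in either population.

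A well of the Epcam-positive sort set up with 0 cells had 99241 gene reads, among them 1 of Loxl3 and 0 of each other member, for which the exact upper limit is 37.2 CPM and 3 reads would be 30.2 CPM. Its reads nearly reach the minimum of 100000 for a kept cell, so whether it was empty is not known, and it is not taken as a blank. A second such well, of the Epcam-negative sort, had 4018 gene reads. It held 3 reads of Loxl3 (746.6 CPM), 2 of Lox (497.8 CPM), 1 of Loxl2 (248.9 CPM) and 0 of Loxl1 and Loxl4. These levels rest on 1 to 3 reads each, and many single Epcam-positive cells also had only a few reads of a member. Whether reads from outside the cell add to the Epcam-positive levels, and so to the ratios and the order of members, was not tested.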

How the data were processed

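Single cells were sequenced by Smart-seq2 with spike-in RNA, reads of 50 bases. The authors deposited unnormalised read counts of genes and spike-ins for every well. The submitters' processing notes name cutadapt 1.13, STAR 2.5.2b, HTSeq 0.6.0 and the build GRCm38. The annotation release and strand setting were not given in the sources used here. Of 49585 gene identifiers, 49326 matched a GENCODE vM21 symbol without the version suffix. No wells had identical counts. The annotation with the coordinates is of the same build.

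Cells were kept with at least 100000 gene reads, 2000 genes, at most 20% mitochondrial reads and at most 50% spike-in reads, which left 62 Epcam-positive and 263 Epcam-negative cells. Kept cells were summed per population and scaled to CPM, and ratios are log2 with a pseudocount of 1 CPM. RPKM used the union of exons. Intervals are exact: Poisson for CPM, Clopper-Pearson for shares, conditional binomial for ratios. With no animal named, a population is 1 sample and no test was made. Ratios were tested on simulated data with known folds. The simulation held counting error only, changed better covered genes, and used smaller folds than those of the 4 higher members. It therefore does not bear on the ratios of these members. Named genes are the 5 members, in each list the 2 to 4 measured genes (at least 10 CPM in either population) with the largest absolute ratio and any that go 2-fold against the list's median, the 5 genes with the highest rank correlation per member present in at least 20% of Epcam-negative cells, and genes with overlapping exons. With each count of 0, a limit of 3 counts is also given. Further list members given for their role, and the genes in the correlation plot, were chosen after their values were seen. The members and lists were chosen with earlier results of these data known. Python 3.11.15, numpy 2.4.6, scipy 1.17.1 and, for TMM factors only, edgeR 4.0.16 were used. Alternatives were other cell filters, scalings, pseudocounts, presence rules, lengths and plate columns, leaving out single cells, and leaving out Epcam-negative cells with Epcam present. The length over unshared 50-base words was chosen after seeing the data. Active-site stretches were located by translating the longest coding sequence of each member, and catalytic parts were aligned globally. Sequence of Lox is not printed here.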

Additional observations from a re-analysis of the deposited data

Results flagged for a closer look

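The well set up with 50 Epcam-negative cells enters none of the comparisons and had 154897 gene reads. It held Lox at 723.1 CPM (595 to 870), 14 reads of Loxl1 (90.4 CPM, 49.4 to 151.6), 8 of Loxl2 (51.6 CPM, 22.3 to 101.8) and 22 of Loxl3 (142.03 CPM, 89.01 to 215.04). These 4 values lie above the 19.4 CPM that 3 reads would give there, the level taken as the limit for a count of 0, and Loxl4 had 1 read. The interval of Lox includes the 739 CPM of the summed single cells, and that of Loxl2 their 100.1 CPM, whereas those of Loxl1 and Loxl3 lie below the 290.96 and 290.4 CPM of the single cells. The difference was not tested, as the well is a single library.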

How the results depend on the processing

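The count of 4 members past 2-fold upwards in Epcam-negative cells was the same under all 12 alternatives. The median log2 ratio of the family, 5.47, was 5.81 with the stricter cell filter (49 Epcam-positive cells), 4.95 as a mean of each cell's CPM, 5.12 with spike-in scaling, 3.95 with a pseudocount of 10 CPM and 6.17 with one of 0.1 CPM. It stayed within its counting interval under the other 7. Over the alternatives the ratio ranged from 5.59 to 8.29 for Lox, 4.72 to 7.73 for Loxl1, 3.29 to 6.17 for Loxl2, 3.95 to 5.29 for Loxl3 and -0.58 to 0.87 for Loxl4. Of 60 such values 25 left the counting interval, and 0 of the 4 higher members changed sign. Shares of cells moved out of their intervals in 15 of 45 cases, all with presence at 1 or 20 reads, where Lox was present in 88.97% and 61.6% of Epcam-negative cells. The 20 shares of family reads per kilobase (other lengths) and 20 rank correlations between members (CPM in place of thinned counts, or without Epcam-negative cells with Epcam present) moved by less than 5 percentage points and 0.1. The 11 counts of list genes past 2-fold upwards moved by less than 1.5 times with no minimum CPM. Under spike-in scaling the copper supply count went from 1 to 0, and hypoxia-inducible genes past 2-fold downwards from 2 to 4 (1 with TMM). The calls over all 9574 measured genes moved as well, from 1467 to 1098 upwards and from 1233 to 2125 downwards (1010 downwards with TMM). These changes of the list counts are therefore no result about the lists. No paired analysis was possible because the labels give no replicate numbers or pairs and each population is 1 sample. Depth limits the Epcam-positive levels, which rest on as few as 32 reads of Loxl2, and Loxl4 in both populations.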
